A study of Mus musculus with 4 samples.

Results

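Transcripts of 10 G protein-coupled receptors that sense gut hormones, glucagon, fatty acids and other signals in pancreatic islets were followed in mouse islets kept at low or high glucose. The receptors were *Glp1r*, *Gipr*, *Gcgr*, *Gpr119*, *Ffar1*, *Chrm3*, *Casr*, *Adra2a*, *Galr1* and *Adora1*. They were selected by gene symbol in a table of 33923 transcript entries, where the 10 genes held 14 entries out of those of 24157 annotated genes. *Adora1* had 5 entries, of which the one with the highest mean stood for the gene.

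Islets were isolated from male wild type mice of the C57bl6 strain at 3 months of age and pooled, then kept overnight at 11 mM glucose and for 2 h at 2.8 mM glucose. By the design of the study they then stayed at 2.8 mM or were moved to 16.8 mM glucose for 12 h, although the treatment label of the 2.8 mM libraries reads 2 h and that of the 16.8 mM libraries 12 h, so duration and concentration cannot be told apart if the labels hold. RNA-seq was performed on total RNA from islets of mixed cell types, with replicates 1 and 2 as the libraries of either group. The study's methods give each replicate a set of islets of the same number, but neither they nor the labels say that the libraries of a group were cultured apart, so p-values measure the spread between these libraries, which may be technical. Depth was recovered from the table itself and lay between 50801400 and 60709800 reads.

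A hormone or transmitter that binds one of these receptors acts on the islet cell through a G protein. The incretin receptors for GLP-1 and GIP, the glucagon receptor and GPR119 couple to Gs, which raises cAMP and augments the secretion of insulin that glucose has triggered. The fatty acid receptor FFAR1 and the M3 muscarinic receptor couple to Gq, which releases calcium from internal stores, whereas the alpha-2A adrenergic, galanin and adenosine A1 receptors couple to Gi, which lowers cAMP and restrains secretion.

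The values are RPKM, reads scaled to kilobases of length and to library depth, and the kilobases were those of the genomic span of a transcript with its introns. For low transcripts the values came out as whole reads, within 0.05 of a read, in 71.2% to 74.0% of cases when the span was used as the length and in 8.82% to 11.2% when the exons were. A level is thus comparable between the concentrations for 1 gene, but between genes it depends on how much of the span is intron.

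Between the 2 concentrations, transcripts of *Ffar1*, *Adra2a*, *Gipr* and *Galr1* rose at 16.8 mM glucose and those of *Gcgr* and *Glp1r* fell, while *Gpr119* did not pass the test. *Ffar1* and *Adra2a* were 2.76-fold and 2.75-fold higher by the ratio of mean RPKM, *Gipr* and *Galr1* 1.98-fold and 1.95-fold higher, and the ratios of *Glp1r* and *Gcgr* were 0.733 and 0.522. These 6 calls come from limma on log2(RPKM + 0.5), with Benjamini-Hochberg adjustment at 0.05 over the 7867 transcripts whose mean reached 1 RPKM. Of those, 33.4% were called, 10.7% as higher and 22.8% as lower, and higher calls made up 31.9% of all calls, or 42.3% and 44.1% after quantile normalization and after centring of each library on its median. Of the 10 receptors 7 reached the minimum, 4 of the 7 were called higher and 2 lower, and *Casr*, *Adora1* and *Chrm3* lay below 1 RPKM and were not tested. Among the 4 called higher, *Galr1* reached the minimum only through its values at 16.8 mM. With 1 RPKM in every library, 3 receptors were called higher and 2 lower, against 868 and 1865 of 6909 transcripts. The minimum mean is per kb of span, so a gene with long introns can miss it despite many reads. The span of *Casr* held an estimated 2025 to 2512 reads per library, and that of *Gpr119*, which was tested, 418 to 577. The median log2 fold change of all tested transcripts was -0.11. A ratio of 2 or more was reached by 3.66% of the tested transcripts and by 2 of the receptors. In bulk islets, fewer cells of a type and less RNA per cell cannot be told apart.

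**Figure D1:**
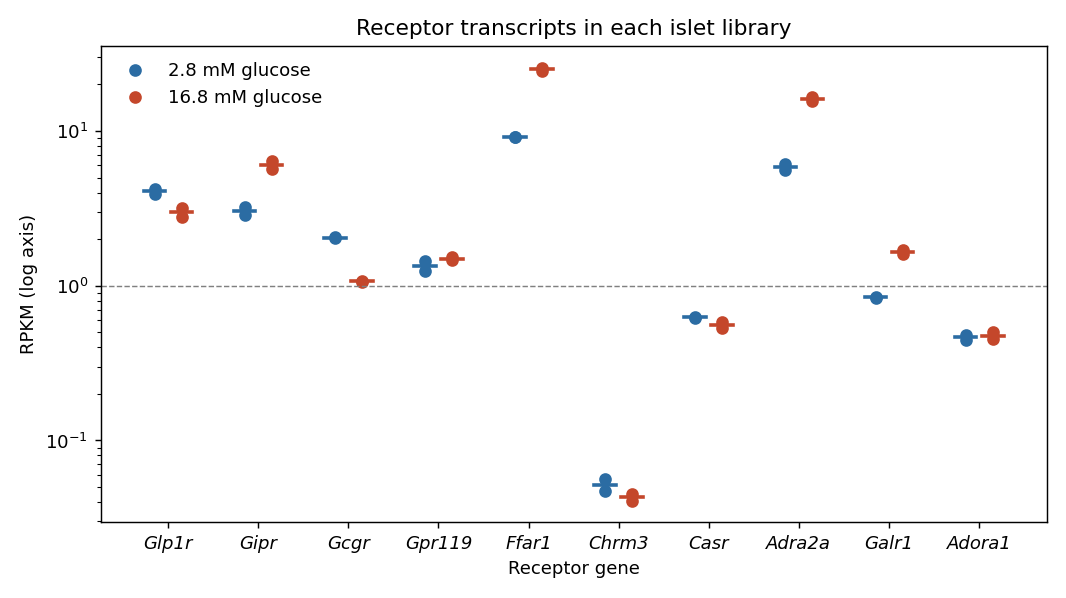
RPKM of each receptor gene on a log axis, with 1 point per library and a short line at the mean of the 2 libraries at 2.8 mM (blue) and 16.8 mM glucose (red). The dashed line marks the minimum mean of 1 RPKM for the test, and *Ffar1* and *Adra2a* lie highest at both concentrations on this scale.

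By the GENCODE annotation of the NCBI37 build, *Glp1r* lies at chr17:31038785-31073455 on the plus strand, *Gipr* at chr7:19742474-19751476 on the minus strand and *Gcgr* at chr11:120392013-120400402 on the plus strand, over all annotated transcripts of each gene. The transcripts whose lengths were used hold 13, 14 and 14 exons, though that of *Gcgr* gave no whole reads. *Ffar1* is a single exon at chr7:31645587-31646489 on the minus strand, and *Adra2a* a single exon at chr19:54119672-54123472 on the plus strand.

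The sequence before the start site is shown for *Adra2a*, which rose, and for *Glp1r* and *Gcgr*, the genes that fell. The RefSeq start of *Ffar1*, which also rose, is that of its coding exon, and its window is not shown. Each is the run of 250 bases before the RefSeq start in GRCm38.p6, a later build than that of the gene coordinates. RefSeq promoter entries were found for 8 of the 10 receptors and not for *Gipr* and *Galr1*. Capitals mark the motifs found, which were searched on both strands. They were the E-box with the letters CACGTG, the cAMP response element half-site with TGACG, the TATA box with TATAAA and the GC box with GGGCGG, which in *Gcgr* and once in *Glp1r* lies on the opposite strand and so reads as its reverse complement.
*Adra2a*, chr19:54045009-54045258, plus strand: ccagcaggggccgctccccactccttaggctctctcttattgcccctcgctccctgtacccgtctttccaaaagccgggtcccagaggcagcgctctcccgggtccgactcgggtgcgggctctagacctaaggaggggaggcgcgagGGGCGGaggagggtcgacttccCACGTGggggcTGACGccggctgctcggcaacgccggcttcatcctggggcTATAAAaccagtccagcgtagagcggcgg
*Glp1r*, chr17:30901617-30901866, plus strand: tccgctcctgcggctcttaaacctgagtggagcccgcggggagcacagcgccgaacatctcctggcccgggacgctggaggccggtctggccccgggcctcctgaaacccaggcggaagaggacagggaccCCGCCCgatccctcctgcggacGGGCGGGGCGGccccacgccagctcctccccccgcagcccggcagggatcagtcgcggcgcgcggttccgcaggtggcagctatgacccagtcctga
*Gcgr*, chr11:120530477-120530726, plus strand: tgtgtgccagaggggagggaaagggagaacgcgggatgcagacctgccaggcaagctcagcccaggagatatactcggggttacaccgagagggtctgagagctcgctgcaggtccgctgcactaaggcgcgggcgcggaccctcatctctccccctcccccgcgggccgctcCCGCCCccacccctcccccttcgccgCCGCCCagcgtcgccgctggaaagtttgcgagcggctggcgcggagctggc

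In the *Adra2a* window the GC box began 102 bases before the start, the E-box 80, the TGACG 69 and the TATA box 29. Among 32851 promoters of the same length, 6.02% held the E-box, 17.8% TGACG, 12.4% the TATA box and 32.7% the GC box on at least 1 strand. *Glp1r* and *Gcgr* held GC boxes, 3 and 2 in number, of which those that began 97 and 92 bases before the start of *Glp1r* overlap, and none of the other motifs searched. The full element TGACGTCA, held by 1.55% of promoters, was in none of the windows. Of the receptors not shown, *Ffar1*, *Chrm3* and *Casr* held none of these motifs, *Gpr119* held a TGACG and *Adora1* GC boxes. A match describes the letters and does not show that a factor binds there.

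*Glp1r*, the receptor for the gut incretin GLP-1, was measured at 3.92 and 4.22 RPKM in replicates 1 and 2 at 2.8 mM glucose, and at 2.77 and 3.19 RPKM at 16.8 mM. Both libraries at 16.8 mM were below both at 2.8 mM, and the groups did not overlap. No overlap was found for 70.4% of all tested transcripts, in 22.2% with higher and in 48.3% with lower values at 16.8 mM. The log2 fold change of *Glp1r* was -0.39 (SE 0.10, 95% interval -0.64 to -0.15, limma, adjusted p = 0.0266). This call was lost without replicate 2 at 2.8 mM (adjusted p = 0.0869), without replicate 1 at 16.8 mM (0.124), after quantile normalization (0.119), after median centring (0.111) and with no minimum level (0.0729), with a log2 fold change between -0.48 and -0.30 over all 17 settings and adjusted p-values from 0.000108 to 0.124.

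*Gipr*, the receptor for the other incretin, GIP, stood at 2.88 and 3.21 RPKM at 2.8 mM and at 6.39 and 5.66 RPKM at 16.8 mM glucose. The groups were well separated, with the lower library at 16.8 mM above the higher one at 2.8 mM. Its log2 fold change was 0.88 (SE 0.11, 95% interval 0.62 to 1.13, limma, adjusted p = 0.0018). The 2 incretin receptors thus moved in opposite directions, and the intervals of their log2 fold changes did not overlap.

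*Gcgr*, which encodes the receptor for glucagon from neighbouring alpha cells, was measured at 2.04 and 2.06 RPKM at 2.8 mM and at 1.07 and 1.06 RPKM at 16.8 mM glucose. Replicates differed little and the groups did not overlap. The log2 fold change was -0.70 (SE 0.08, 95% interval -0.88 to -0.52, limma, adjusted p = 0.00117). On the scale of log2(RPKM + 0.5) a low gene changes by less than its ratio, whose log2 was -0.94 for *Gcgr*. A predicted gene on the opposite strand, *Gm11789*, overlaps 1086 bp of the *Gcgr* span and its reads could not be separated.

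*Gpr119*, a receptor for lipid amides that couples to Gs, was measured at 1.44 and 1.24 RPKM at 2.8 mM and at 1.46 and 1.52 RPKM at 16.8 mM glucose. Its highest library at 2.8 mM lay just under its lowest at 16.8 mM. The log2 fold change was 0.12, with a 95% interval from -0.09 to 0.32 (SE 0.09, limma, adjusted p = 0.339), and this interval lies below the intervals of *Gipr*, *Ffar1*, *Adra2a* and *Galr1*.

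*Ffar1*, the receptor through which long-chain fatty acids augment insulin secretion, was at 9.08 and 9.09 RPKM at 2.8 mM and at 24.5 and 25.7 RPKM at 16.8 mM glucose. No other receptor of the 10 had a higher RPKM at either concentration. The log2 fold change was 1.42 (SE 0.11, 95% interval 1.15 to 1.69, limma, adjusted p = 0.000423). Its annotated transcript is a single coding exon of 903 bp, so reads outside this exon were not counted, and 479, 426, 1344 and 1176 reads lay behind the 4 values.

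The other receptors that couple to Gq lay below 1 RPKM on the deposited scale. *Chrm3*, the muscarinic receptor for acetylcholine from parasympathetic nerves, was listed at 0.0472 and 0.0567 RPKM at 2.8 mM and at 0.0409 and 0.0452 RPKM at 16.8 mM glucose. Its ratio of means was 0.829, and with no minimum level its adjusted p was 0.294 (limma). The length used for this gene could not be resolved. The 4 values correspond to between 4 and 6 reads if only the 1949 bp exon of the annotation was counted, and to between 1115 and 1431 reads over its 485577 bp span in a later annotation, so how well it was measured is not known.

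*Casr*, the receptor for extracellular calcium, was at 0.628 and 0.620 RPKM at 2.8 mM and at 0.533 and 0.582 RPKM at 16.8 mM glucose. The receptor couples to Gi as well as to Gq. All values at 16.8 mM were lower, and the ratio of means was 0.894. With the minimum at 0.1 RPKM its log2 fold change was -0.09 (95% interval -0.22 to 0.04, limma, adjusted p = 0.226), and among the 4 alternatives that tested it the lowest adjusted p was 0.0429.

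Among the receptors that couple to Gi, *Adra2a*, which mediates the restraint of insulin secretion by adrenaline and noradrenaline, showed the larger change. It was measured at 6.09 and 5.59 RPKM at 2.8 mM and at 15.7 and 16.5 RPKM at 16.8 mM glucose. The groups did not overlap, and the log2 fold change was 1.39 (SE 0.11, 95% interval 1.12 to 1.65, limma, adjusted p = 0.000429). Within each library *Ffar1* stood above *Adra2a* by a like factor, with ratios of 1.49 and 1.63 at 2.8 mM and of 1.57 and 1.56 at 16.8 mM.

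*Galr1*, a receptor for the neuropeptide galanin with 3 annotated exons, rose from 0.835 and 0.849 RPKM at 2.8 mM to 1.70 and 1.60 RPKM at 16.8 mM glucose. It was below 1 RPKM in both libraries at 2.8 mM and passed the minimum through those at 16.8 mM. The log2 fold change was 0.68 (SE 0.08, 95% interval 0.50 to 0.86, limma, adjusted p = 0.00131).

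*Adora1*, the adenosine A1 receptor, was at 0.448 and 0.479 RPKM at 2.8 mM and at 0.50 and 0.451 RPKM at 16.8 mM glucose. It was the 1 receptor whose groups overlapped, with a ratio of means of 1.03, and with the minimum at 0.1 RPKM its log2 fold change was 0.02 (95% interval -0.11 to 0.15, limma, adjusted p = 0.8). *Mybph*, on the opposite strand, overlaps 2009 bp of its span and was at 0.642 and 0.675 RPKM at 2.8 mM and 0.793 and 0.723 RPKM at 16.8 mM, so the reads of both genes may be shared.

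**Figure D2:**
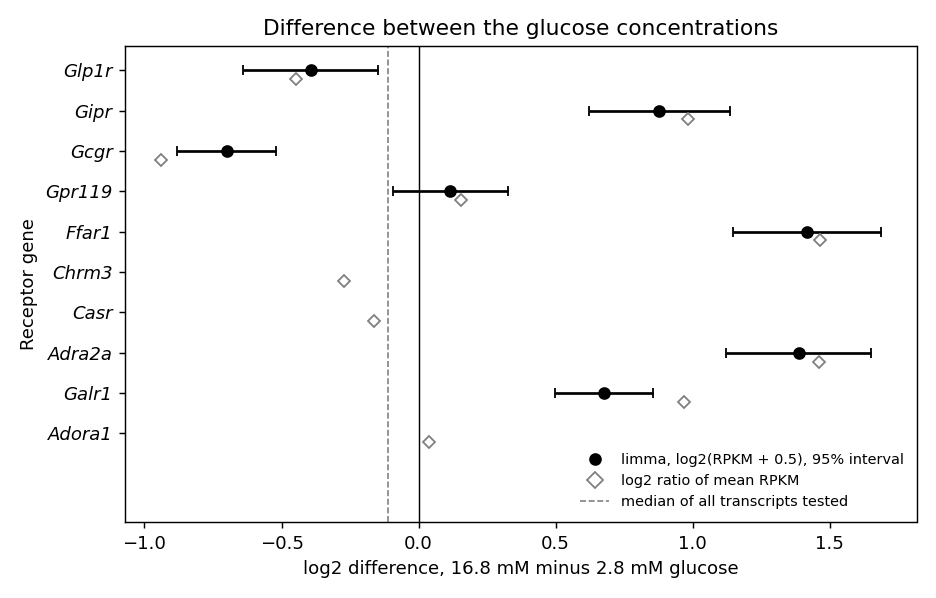
Log2 difference between 16.8 mM and 2.8 mM glucose for each receptor, as the limma estimate with its 95% interval (filled, 7 tested receptors) and as the log2 ratio of mean RPKM (open). *Ffar1*, *Adra2a*, *Gipr* and *Galr1* lie above 0, *Glp1r* and *Gcgr* below it, and the dashed line marks the median of -0.11 over all tested transcripts.

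The calls of *Ffar1*, *Adra2a*, *Gipr* and *Gcgr* were made under all 17 settings, and that of *Galr1* under the 16 that tested it. In 4 of these settings a library was left out, and the lone library of its group was assumed to vary like the other group, so that these p-values rest on the spread between 2 libraries of 1 group. *Gpr119* was called under none. Leaving out each library in turn moved the log2 fold change of *Ffar1* between 1.39 and 1.45 and that of *Adra2a* between 1.33 and 1.44.

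With changes in opposite directions, the ratios of receptors within a library differed between the concentrations. *Glp1r* exceeded *Gipr* 1.36-fold and 1.31-fold in RPKM at 2.8 mM, whereas the ratio of *Glp1r* to *Gipr* was 0.434 and 0.564 at 16.8 mM. *Adra2a* stood above *Glp1r* by a factor of 1.55 and 1.33 at 2.8 mM and of 5.65 and 5.16 at 16.8 mM. *Gipr* exceeded *Gcgr* 1.41-fold and 1.56-fold at 2.8 mM and 5.95-fold and 5.32-fold at 16.8 mM.

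Summed over the 4 receptors that couple to Gs (*Glp1r*, *Gipr*, *Gcgr*, *Gpr119*), RPKM was 10.3 and 10.7 at 2.8 mM and 11.7 and 11.4 at 16.8 mM glucose. The sum over the 3 that couple to Gi alone (*Adra2a*, *Galr1*, *Adora1*) was 7.37 and 6.92 at 2.8 mM and 17.9 and 18.5 at 16.8 mM. *Casr*, which couples to Gq and Gi, was left out of both sums. On this scale the Gi sum was smaller than the Gs sum at 2.8 mM, with ratios of 0.717 and 0.645. It was larger at 16.8 mM, with ratios of 1.53 and 1.62, where *Adra2a* alone held 15.7 and 16.5 RPKM. Both sums cover only the 10 receptors chosen, and their order depends on that choice. Outside them, *Sstr3*, which couples to Gi, fell from 14.3 and 13.4 to 8.32 and 8.29 RPKM. *Ffar3*, which also couples to Gi, rose from 0.879 and 0.885 to 3.94 and 3.77 RPKM.

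The order of the receptors depended on the length scale. Exons made up 4.27% of the span of *Glp1r*, 6.29% of that of *Casr* and 19.9% of that of *Gipr*, but all of that of *Ffar1* and *Adra2a*. If every read of a span is assigned to exons, an upper limit, *Glp1r* led the 9 receptors other than *Chrm3* at 95.3 in RPKM units per kb of exon at 2.8 mM and 69.8 at 16.8 mM. *Gipr* followed at 15.3 and 30.3, *Casr* was at 9.92 and 8.87, *Ffar1* at 9.08 and 25.1 and *Adra2a* at 5.84 and 16.1. The span used gave whole reads, for 6 of the 9, whereas the reads and exon-scale levels of *Gcgr*, *Casr* and *Adora1* are estimates.

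On this exon scale *Glp1r* stayed above *Gipr* at both concentrations, by factors of 6.34 and 6.12 at 2.8 mM and of 2.02 and 2.63 at 16.8 mM. The Gs sum was 119 and 127 at 2.8 mM and 106 and 112 at 16.8 mM, so it moved down where it had moved up on the deposited scale. It stayed above the Gi sum, with ratios of Gi to Gs of 0.113 and 0.105 at 2.8 mM and of 0.262 and 0.247 at 16.8 mM. The Gi sum leaves out *Casr*, whose means on this scale were 9.92 at 2.8 mM and 8.87 at 16.8 mM. Which receptor or coupling class held more transcript, and in which direction the Gs sum moved, was thus not settled by these values. For its sorted alpha and beta cells the study counted reads within RefSeq exons, and it does not say how the islet libraries were counted. The ratio of a pair of genes moves by the same factor on both scales by construction.

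**Figure D3:**
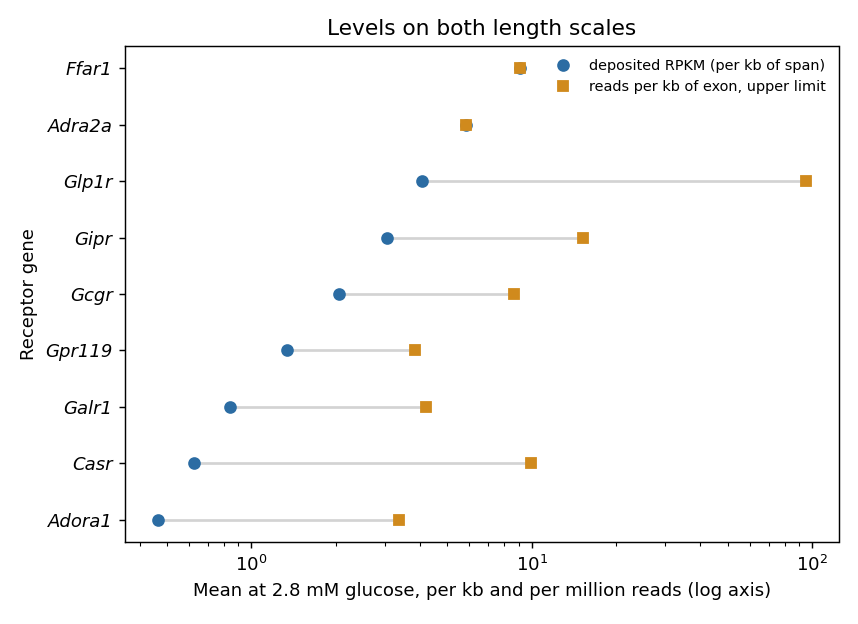
Mean level at 2.8 mM glucose of the 9 receptors other than *Chrm3*, in RPKM units, on the deposited scale (circles, per kb of span) and per kb of exon (squares, an upper limit), on a log axis. *Glp1r* moves from 4.07 to 95.3, whereas *Ffar1* and *Adra2a*, each with a single exon, stay in place.

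**Figure D4:**
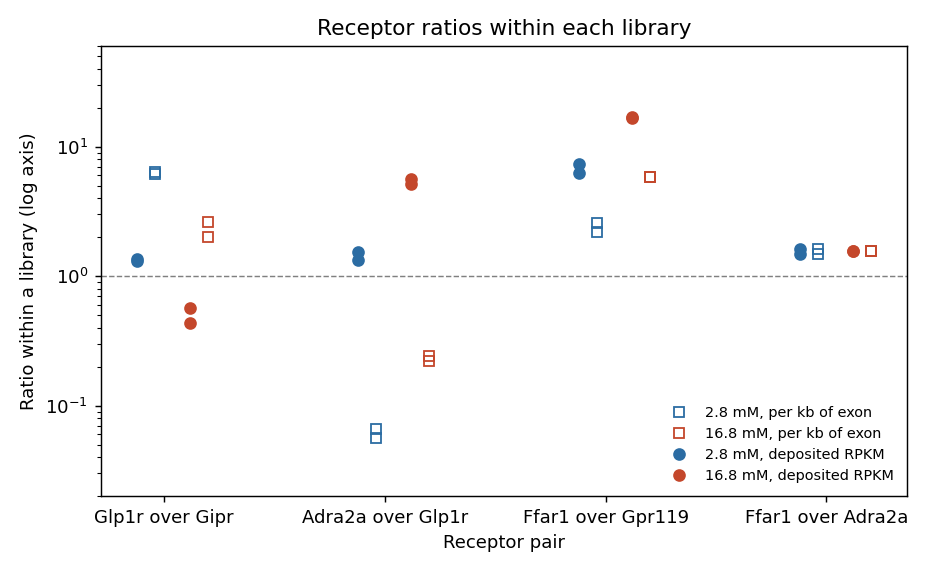
Ratio of 2 receptors within each library on a log axis, at 2.8 mM (blue) and 16.8 mM glucose (red), from deposited RPKM (circles) and per kb of exon (squares). *Glp1r* over *Gipr* falls and *Adra2a* over *Glp1r* rises on both scales, and only on the deposited scale does *Glp1r* over *Gipr* cross 1.

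On the deposited scale the receptors ranked *Ffar1*, *Adra2a*, *Glp1r*, *Gipr*, *Gcgr*, *Gpr119*, *Galr1*, *Casr*, *Adora1* and *Chrm3* at 2.8 mM glucose. At 16.8 mM *Gipr* stood above *Glp1r*, and *Galr1* above *Gpr119* and *Gcgr*. The libraries of neighbours in these orders did not overlap. Given as reads, the span of *Glp1r* held between 5617 and 7944 per library, that of *Adra2a* between 1104 and 3613, that of *Gipr* between 1503 and 3491 and that of *Gpr119* between 418 and 577. The reads of *Gcgr*, between 447 and 986, are estimates, because no annotated length gave whole numbers for it.

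Genes that act with these receptors were read from 8 lists with 140 genes in the table, of which 41 were tested, 16 were called higher and 8 lower at 16.8 mM glucose. The other 99 lay below the minimum, so the counts cover few genes of each list. Over all tested transcripts, 10.7% were called higher and 22.8% lower. Some of the higher calls, among them those of CREB targets, passed the minimum only through values at 16.8 mM. With 1 RPKM in every library, 10 genes of the lists were called higher and 9 lower. Over all transcripts that setting gave 868 higher and 1865 lower calls among 6909 tested. Among related receptors, 3 of 4 tested genes of the 27 were called higher and none lower. With a minimum mean of 0.1 RPKM, 5 were called higher and 1 lower, against 1420 and 3480 of 16234 over all transcripts. How many of the 27 were tested at that minimum was not counted. *Vipr2*, named after its values were seen, lay below the main minimum and was not tested. It was at 0.254 and 0.244 RPKM at 2.8 mM and at 0.0243 and 0.027 RPKM at 16.8 mM. *Ffar3*, a receptor for short-chain fatty acids that couples to Gi, was at 0.879 and 0.885 RPKM at 2.8 mM and at 3.94 and 3.77 RPKM at 16.8 mM, and its log2 fold change was 1.66 (SE 0.08, limma, adjusted p = 6.1e-05). *Ffar2*, its relative, rose by 0.53 on the log2 scale (limma, adjusted p = 0.0151) and *Vipr1*, a receptor for the neuropeptide VIP, by 0.71 (adjusted p = 0.0014). *Ffar3* and *Vipr1* passed the minimum of 1 RPKM only through their values at 16.8 mM.

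Of 28 further islet receptors 5 were tested, with 1 called higher and 3 lower. *P2ry1*, a receptor for extracellular ADP, had a log2 fold change of 1.03, *Sstr3*, a somatostatin receptor that couples to Gi, one of -0.71 and the adhesion receptor *Gpr56* one of -0.61 (limma, adjusted p = 0.00173, 0.00423 and 0.00413). *Gpr27*, an orphan receptor outside the naming rule and named after its values were seen, had a log2 fold change of -0.55 (limma, adjusted p = 0.034). *Adra2a*, *Galr1* and *Ffar3* rose and *Sstr3* fell, so the receptors that couple to Gi did not move as 1 group.

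Among the ligands of the receptors and the enzymes that process them, 3 of 4 tested genes of the 14 rose. *Pcsk1*, the convertase that can release GLP-1 from proglucagon, was at 2.60 and 2.40 RPKM at 2.8 mM and at 9.18 and 10.9 RPKM at 16.8 mM glucose (log2 fold change 1.81, SE 0.12, limma, adjusted p = 0.000184). *Pcsk2*, the convertase that releases glucagon, changed by 0.58 and *Entpd3*, an enzyme that breaks down extracellular nucleotides, by 0.66 (limma, adjusted p = 0.00679 and 0.00413). *Gcg*, the gene of proglucagon and so of the ligands of *Gcgr* and *Glp1r*, was at 2155 and 1653 RPKM at 2.8 mM and at 2100 and 1474 RPKM at 16.8 mM (log2 fold change -0.10, limma, adjusted p = 0.721), and its groups overlapped.

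Among 26 genes of G protein subunits, 13 were tested, 2 rose and 3 fell. *Gnas*, which encodes the alpha subunit of Gs, was at 50.5 and 44.5 RPKM at 2.8 mM and at 50.7 and 45.5 RPKM at 16.8 mM glucose, with a log2 fold change of 0.02 (SE 0.14, limma, adjusted p = 0.924). *Gnai2*, an alpha subunit of Gi, was at 32.7 and 31.5 RPKM at 2.8 mM and at 15.8 and 14.3 RPKM at 16.8 mM (log2 fold change -1.07, SE 0.12, limma, adjusted p = 0.00143). The transcript of this Gi subunit was thus lower where the Gi-coupled receptors *Adra2a* and *Galr1* were higher. The gamma subunits *Gng12* and *Gng4* had log2 fold changes of 1.06 and 0.65.

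Arrestins and receptor kinases, which desensitise active receptors, held 3 tested genes of 7. *Arrb2*, a beta-arrestin, had a log2 fold change of -0.54 (limma, adjusted p = 0.00697), and the kinase *Adrbk1* one of -0.22 that did not pass the test (adjusted p = 0.115). In the Gq branch, *Itpr3*, an IP3-gated calcium channel, was the 1 gene of 12 that was tested, with a log2 fold change of -0.06 (limma, adjusted p = 0.566). With a minimum mean of 0.1 RPKM, none of this list was called higher and 3 were called lower. With voom on reconstructed reads, none was called higher and 8 lower. Over all transcripts, these settings gave 1420 and 2424 higher and 3480 and 5098 lower calls among 16234 and 17523 tested. How many of the 12 genes were tested under them was not counted, so no share can be set beside these.

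Of 17 effectors of cAMP 5 were tested, with 2 called higher and 1 lower. *Prkar1a*, a regulatory subunit of protein kinase A, was at 16.6 and 14.5 RPKM at 2.8 mM and at 41.8 and 43.0 RPKM at 16.8 mM glucose (log2 fold change 1.42, SE 0.13, limma, adjusted p = 0.000595). *Crem*, a relative of the cAMP-responsive factor CREB whose short forms repress transcription, had a log2 fold change of 1.64, and the CREB coactivator *Crtc2* one of -0.48 (limma, adjusted p = 8.65e-05 and 0.00821). *Crem* was at 0.890 and 0.815 RPKM at 2.8 mM and passed the minimum only through its 3.88 and 3.54 RPKM at 16.8 mM. With 1 RPKM in every library, 1 gene of this list was called higher and 1 lower.

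Of 10 known targets of CREB 7 were tested, and 6 of them rose, *Crem* among them. *Nr4a2* was at 0.442 and 0.389 RPKM at 2.8 mM and at 4.03 and 3.45 RPKM at 16.8 mM glucose, and *Fos* at 0.757 and 0.846 against 5.70 and 4.16 RPKM. Their log2 fold changes were 2.21 and 2.05 and that of *Nr4a1* 1.70 (limma, adjusted p = 3.33e-05, 0.000219 and 0.000595), and these transcription factor genes respond to calcium and growth signals as well as to cAMP. *Per1*, a clock gene, did not pass the test (log2 fold change 0.27, adjusted p = 0.0789). The 6 passed the minimum of 1 RPKM only through their values at 16.8 mM, and with a minimum of 1 RPKM in every library none of the list was called higher.

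**Figure D5:**
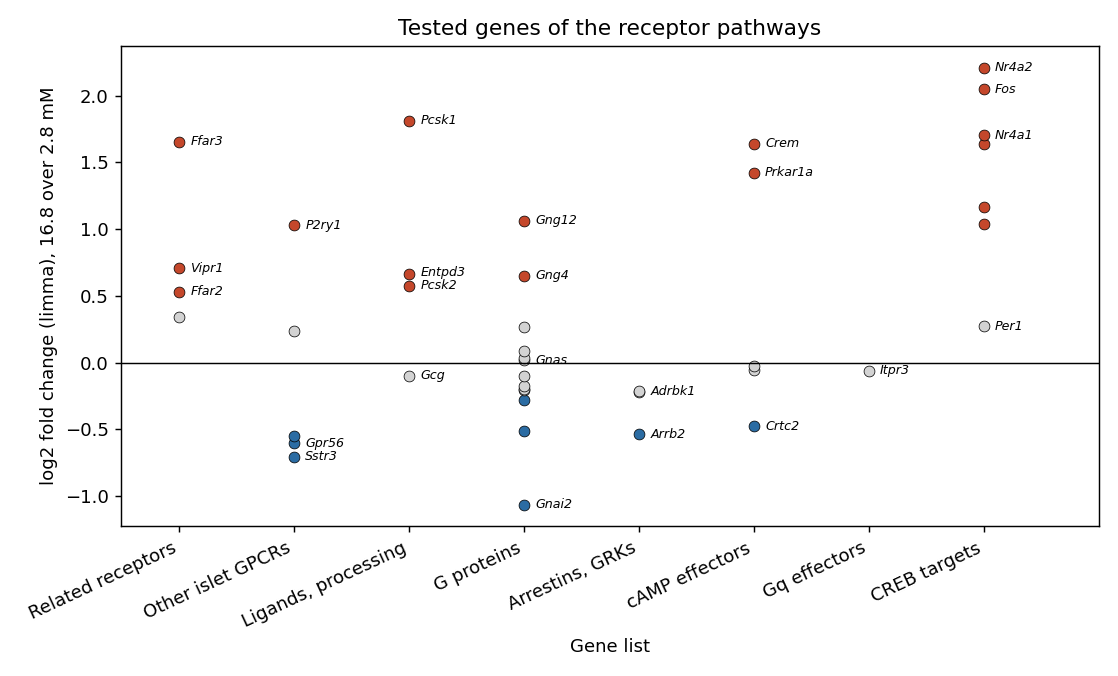
Log2 fold change (limma, 16.8 mM over 2.8 mM glucose) of the tested genes in 8 lists of genes that act with the receptors, with higher calls in red, lower calls in blue and genes that did not pass the test in grey. Names are those of the naming rule, and *Nr4a2*, *Fos* and *Pcsk1* lie highest and *Gnai2* lowest.

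Cell type markers were read in the same libraries, since islets hold several cell types. Of 7 beta cell markers all were tested and 6 rose, with log2 fold changes of 1.77 for *Ins1*, 0.75 for *Ins2*, 0.93 for *Iapp*, 0.59 for *Ucn3*, 2.44 for *Mafa* and 2.80 for *G6pc2*, and *Slc2a2* had a log2 fold change of 0.40 (limma, adjusted p = 0.0607). Their summed RPKM was 20576 to 22925 at 2.8 mM and 41133 to 43884 at 16.8 mM. The 4 alpha cell markers reported were all tested and 0 were called, with log2 fold changes of -0.10 for *Gcg*, 0.19 for *Irx1*, 0.18 for *Irx2* and 0.53 for *Ttr* (limma, adjusted p = 0.721, 0.195, 0.396 and 0.0613). They summed to 1688 to 2204 RPKM at 2.8 mM and 1531 to 2163 RPKM at 16.8 mM.

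The 7 acinar markers varied between libraries, with summed RPKM of 82.3 and 238 at 2.8 mM and of 202 and 425 at 16.8 mM, and none was called. Delta cell markers summed to 447 to 598 RPKM at 2.8 mM and 696 to 704 RPKM at 16.8 mM, with 0 of 3 tested genes called. Markers of pancreatic polypeptide cells, macrophages and stroma had no call among the 5 tested, 1 of 2 tested duct markers rose, and the 5 endothelial markers lay below the minimum. The 5 Schwann and neural markers also lay below it and summed to 1.55 and 1.48 RPKM at 2.8 mM and to 0.647 and 0.614 RPKM at 16.8 mM. No marker was at 0 in every library. The beta cell markers moved with *Ffar1*, *Adra2a*, *Gipr* and *Galr1*, and their part in the receptors' changes was not tested.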

How the data were processed

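RNA-seq libraries of mouse islets, 2 at 2.8 mM and 2 at 16.8 mM glucose, were grouped by their titles. The authors deposited 1 table of RPKM values per transcript, and every column of library values in it was used. The submitters' processing notes name STAR, bedtools, DESeq and the mm9 build (NCBI37), without versions, and the study's methods do not describe the islet libraries apart. Depths came from the RPKM steps of 118 to 121 lncRNAs per library, 98.3% to 100% of whose values were whole reads (tolerance 0.05). Reads were reconstructed from RPKM, depth and genomic span for 88.5% of entries. Strand use in counting is not given in the sources used here, so reads of overlapping genes may be shared, and PCR duplicates cannot be told apart. Each group has 2 libraries, which limits precision.

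Each set of identical entries was reduced to 1, and where 1 value per gene was needed its entry with the highest mean was taken. The values, as log2(RPKM + 0.5), were fitted with limma 3.58.1 in R 4.3.3 (variance trend, empirical Bayes, two-sided, Benjamini-Hochberg adjustment). No count test was used because the table holds no counts. Other steps used Python 3.11.15, pandas 2.3.3, numpy 2.4.6, scipy 1.17.1 and matplotlib 3.10.9. Alternatives were 0.1 or 1 RPKM added, other minimum levels, no trend, quantile normalization, median centring, other choices of entries, voom on reconstructed reads with a mean of at least 20, the replicate number as a block, and each library left out in turn. The scale of reads per exon length was chosen after seeing the data.

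The receptors and gene lists were chosen with earlier results of these data known. Named were all 10 receptors, up to 3 called genes of each list with the largest absolute log2 fold change and its tested gene with the highest mean, every beta and alpha cell marker, and any gene overlapping a receptor. Some markers of the alpha cell list are not reported here.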

Additional observations from a re-analysis of the deposited data

How the results depend on the processing

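The direction of the 7 tested receptors was the same under all settings that tested them. Receptors called lower numbered 1 in place of 2 with no minimum, with quantile normalization and with median centring, in each case through *Glp1r*. The log2 fold change of *Glp1r* was -0.39, -0.30 and -0.31 under these 3 settings. When each library was left out in turn it lay between -0.48 and -0.31. Receptors called higher numbered 3 with a minimum of 1 RPKM in every library, where *Galr1* was not tested, and 4 otherwise.

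Over all transcripts, 838 higher and 1790 lower calls became 1420 and 3480 with a minimum mean of 0.1 RPKM and 2424 and 5098 with voom on reconstructed reads, and higher calls became 1576 with quantile normalization and 1662 with median centring. Leaving out each library gave 714 to 904 higher and 1059 to 1865 lower calls, with 1059 without replicate 2 at 16.8 mM. In the 8 pathway lists, 16 higher and 8 lower calls became 16 lower with no minimum, 19 lower with a minimum of 0.1 RPKM, 10 higher with 1 RPKM in every library, and 30 higher and 35 lower with voom, with 6 to 8 lower and 16 to 17 higher when a library was left out.

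The replicate numbers are shared by the groups, but all islets came from 1 pool and no source ties equal numbers together, and the deviations of equal numbers correlated at 0.31 over 7867 transcripts. With the replicate block, 1232 transcripts were higher and 2835 lower, and no receptor call changed. With voom and the replicate block, 3316 were higher and 6821 lower (34 and 39 in the pathway lists), and *Casr* was called lower at -0.16 (adjusted p = 0.0429), so 3 receptors were called lower. On the exon scale, chosen after seeing the data, all values of a gene are multiplied by the same factor, so its level moved and its ratio between the concentrations did not.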
